A study of Mus musculus with 8 samples.

Results

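The 9 genes followed code for chains of the receptors for interferon-gamma, IL-12, IL-18, IL-10 and IL-6: Ifngr1, Ifngr2, Il12rb1, Il12rb2, Il18r1, Il18rap, Il10ra, Il6ra and Il6st. They were taken by symbol, and all 9 were found among the 13204 genes of the deposited table. The libraries came from OT-I CD8 T cells, which carry a transgenic receptor for an ovalbumin peptide. These cells were transferred 24 hours before the recipients received skin grafts expressing ovalbumin, and spleens were collected on day 14. Within the CD8+ Thy1.1+ CD44hi gate, 1000 cells with FcgRIIB on the surface (FcgRIIB-positive) and 1000 cells without it (FcgRIIB-negative) were sorted from each of 4 pools of 3 spleens. FcgRIIB is an inhibitory Fc receptor that binds IgG, and both groups share the transfer, the graft and every sort marker except FcgRIIB. There are 4 libraries per group, and libraries with the same replicate number come from the same pool. The comparison asks how the cytokine receptor genes differ between effector CD8 T cells with and without this receptor. Values are RPKM, read counts scaled to exon length and library depth, and levels are set side by side between genes on this scale. Some ratios between genes differed between replicates within each group, as given below for Il18rap and Il18r1, and the cause was not tested.

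Cytokine receptors of this kind work as paired chains, of which usually the first binds the cytokine and the second completes the signalling complex. IFNGR1 binds interferon-gamma, and IFNGR2 is the chain that brings JAK2 to the complex. Its abundance is known to set how strongly T cells respond. The IL-12 receptor joins IL-12Rβ1, which is shared with the IL-23 receptor, to IL-12Rβ2, which signals through STAT4, and the IL-18 receptor signals through MyD88. Both cytokines promote interferon-gamma production by effector CD8 T cells. IL-10RA and the IL-6 receptor with its shared chain gp130 (coded by Il6st) act mainly through STAT3. Most of these chains are also made by myeloid cells.

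Ifngr2 was the receptor gene that rose in FcgRIIB-positive libraries, by 5.42-fold on the RPKM + 1 scale. Limma called 0 of the 9 lower, and the count was also 0 with the replicate block and for unadjusted p-values under 0.05, which 7.48% of all genes reached as higher and 4.67% as lower. A call is a limma adjusted p under 0.05 over the 11946 genes tested, all 9 receptor genes among them. For comparison, 3.03% of all genes tested were called higher and 0.268% lower. With the replicate number as a block, since each pool of spleens gave a library to both groups, Il10ra was called higher as well, at 2.19-fold. Those 2 of 9 stand beside 7.22% of all genes called higher and 3.85% called lower in the blocked fit. The median log2 fold change of the 9 was 0.05, against -0.11 over all genes tested. Fold changes are positive over negative on the log2(RPKM + 1) scale, which understates the change of low genes.

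Libraries held 3060000 to 22010000 reads, with more in replicates 1 and 2 of either group (16470000 or above) than in replicates 3 and 4 (7360000 or below). Libraries of these 2 sets also stood apart in the levels of several receptors, so values within each set are given beside the results. Fcgr2b, the gene of the sorted receptor, ranged from 29.6 to 69.9 RPKM in positive libraries and from 1.82 to 4.82 RPKM in negative ones. Markers of some other cell types moved with the groups. Of 11 dendritic cell markers 10 were called higher, with a summed level of 581 to 1074 RPKM in positive against 25.1 to 79.5 RPKM in negative libraries. Of 12 macrophage markers 9 were called higher, with sums of 1171 to 1879 against 114 to 421 RPKM. Clec10a, Mcpt8 and Fcer1a were at 0 in 1 negative library each, and no other dendritic cell, macrophage or basophil marker was at 0. Some values lay close to 0, such as Siglech at 0.037 RPKM in negative replicate 2 and Gata2 at 0.067 RPKM in negative replicate 1. All 14 core T cell genes had log2 fold changes below 0 (median -0.98), with sums of 2227 to 4737 against 5822 to 9375 RPKM. Limma called 0 of them lower, against 5 by unadjusted p under 0.05 and 7 with the block. Basophil markers were called higher in 3 of 6 cases, and natural killer cell markers in 0 of 3 (0 at an unadjusted p under 0.05 and with the block). Plasma cell markers were called higher in 1 of 3 cases and monocyte and granulocyte markers in 1 of 7. For B cell, CD4 T cell and erythroid markers the counts were 0 of 6, 0 of 3 and 0 of 3. All 6 B cell markers had log2 fold changes below 0, and 1 was called lower with the block. In bulk libraries fewer cells of a type and less RNA per cell cannot be told apart.

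**Figure D1:**
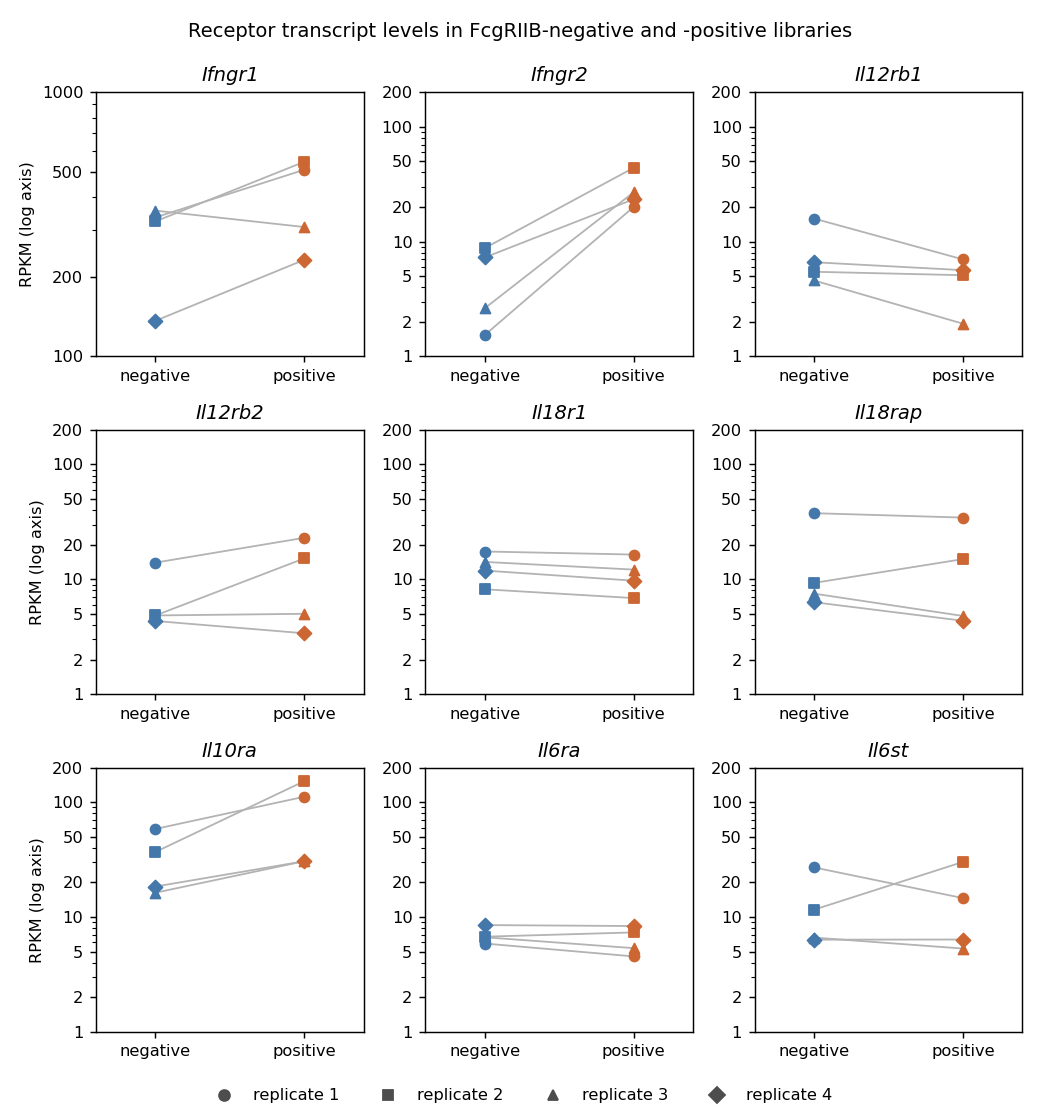
RPKM on a log axis for each receptor gene in the FcgRIIB-negative (blue) and FcgRIIB-positive (orange) library of each replicate, with lines joining libraries from the same pool of spleens. Ifngr1 has an axis of its own. Only in the Ifngr2 panel do all positive libraries lie above all negative ones.

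The 2 interferon-gamma receptor genes are shown with the 250 bases before their RefSeq start (build GRCm38.p6), because these genes of 1 receptor differed most in level. Promoter sequences were matched for 7 of the 9 genes. Capitals mark matches to the GC box GGGCGG on either strand.
Ifngr1, chr10:19591699-19591948, plus strand: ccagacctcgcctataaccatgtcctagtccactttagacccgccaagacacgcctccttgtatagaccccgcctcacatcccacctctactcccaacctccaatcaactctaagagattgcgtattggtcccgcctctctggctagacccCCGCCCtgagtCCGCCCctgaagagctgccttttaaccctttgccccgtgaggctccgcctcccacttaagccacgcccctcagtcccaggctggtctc
Ifngr2, chr16:91546809-91547058, plus strand: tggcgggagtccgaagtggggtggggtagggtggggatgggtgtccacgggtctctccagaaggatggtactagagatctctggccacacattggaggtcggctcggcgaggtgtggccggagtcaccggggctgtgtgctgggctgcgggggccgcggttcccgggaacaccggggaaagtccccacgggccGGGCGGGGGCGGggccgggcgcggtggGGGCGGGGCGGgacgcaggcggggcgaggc
The GC box was found 2 times before Ifngr1 and 4 times before Ifngr2, where 2 matches share 1 base, and 33.0% of 27025 gene promoters of this length hold it. G and C made up 59.2% of the Ifngr1 and 74.0% of the Ifngr2 sequence, against a median of 52.0% over those promoters. Neither sequence held the STAT motif TTCNNNGAA, which is in 7.14% of promoters, or the IRF motif (GAAA, any 2 bases, GAAA), which is in 3.05%.

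Ifngr2 (Entrez 15980), the signalling chain of the interferon-gamma receptor, was at 1.53, 8.77, 2.63 and 7.27 RPKM in negative replicates 1 to 4. In positive replicates 1 to 4 it was at 20.0, 43.9, 26.9 and 23.4 RPKM. Every positive library lay above every negative one, as it did for 4.61% of all genes tested, with the reverse for 4.15%. The means were 28.5 ± 10.6 against 5.05 ± 3.51 RPKM (SD, n = 4 each). This gave a log2 fold change of 2.44 (SE 0.45, 95% interval 1.46 to 3.42, limma adjusted p = 0.0103, and 1.2e-06 with the block). The exact permutation p was 0.0286, two-sided, the smallest that the 35 distinct splits into 4 and 4 allow, and exchanges within pairs gave 0.125, the smallest they allow. The gene was higher in 4 of 4 pairs, with differences of 3.05, 2.20, 2.94 and 1.56 on the log2 scale. It passed within replicates 1 and 2 alone (2.63, adjusted p = 0.00242), where 7.32% of all genes were called higher and 1.19% lower. It also passed within replicates 3 and 4 alone (2.25, adjusted p = 0.0196), where 2.29% were called higher and 0.0921% lower. Without negative replicate 3 the call ended (2.26, adjusted p = 0.0548), and without any other library the adjusted p stayed at 0.0277 or below. The values rest on 40 to 308 reads per negative and 257 to 2000 reads per positive library.

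Among the 4 positive libraries Ifngr2 was highest in replicate 2. The dendritic cell and macrophage sums were highest there too, at 1074 and 1879 RPKM, and the core T cell sum was lowest, at 2227 RPKM. The other positive libraries did not follow this order. Positive replicate 1 had the lowest Ifngr2 level of the group, with sums of 682 and 1560 RPKM. These were above the sums in positive replicate 3 (581 and 1171 RPKM) and replicate 4 (582 and 1183 RPKM). Among the negative libraries Ifngr2 was likewise highest in replicate 2, with the highest macrophage sum (421 RPKM), while the dendritic cell sum there was 35.4 RPKM, against 25.1 to 79.5 RPKM over the group. Negative replicate 1 had the lowest Ifngr2 level and the lowest macrophage sum (114 RPKM), with the highest dendritic cell sum (79.5 RPKM). Most of that sum came from 1 marker, Itgax, at 58.3 RPKM, against 8.12 to 12.1 RPKM in the other negative libraries. The part of these cell types in the Ifngr2 difference was not tested. After each library was scaled to its core T cell genes, Ifngr2 had a log2 fold change of 3.43 (adjusted p = 0.0017), with 10.0% of all genes called higher, while the median of all genes moved by 0.99, to 0.88.

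**Figure D2:**
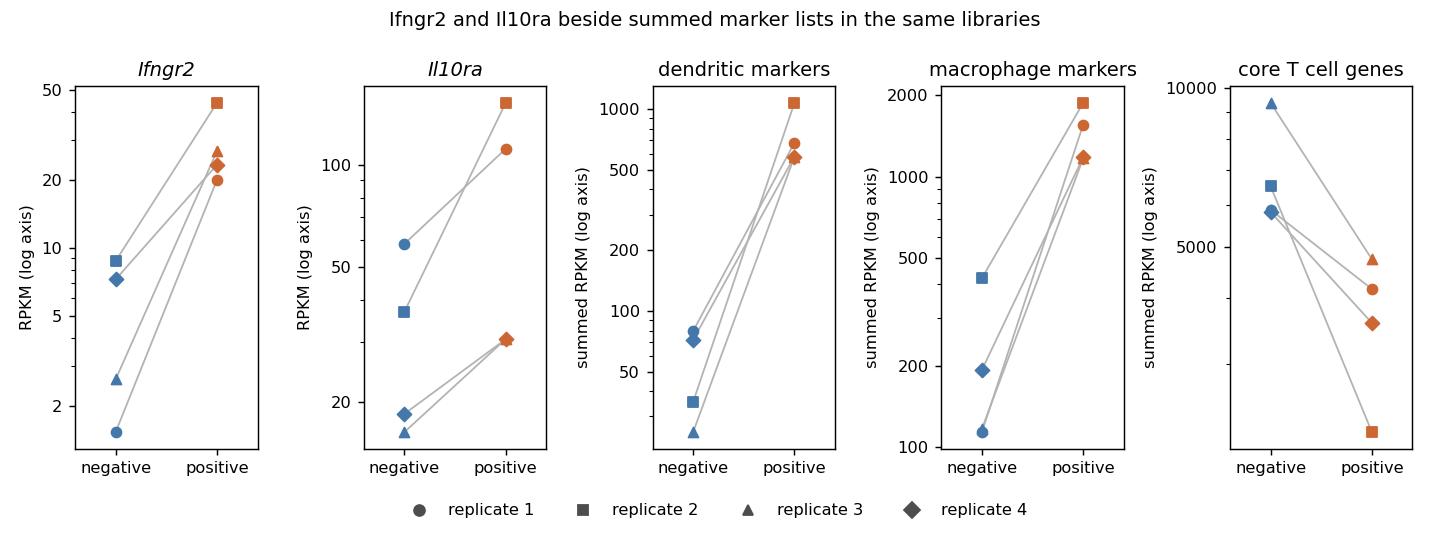
Levels of Ifngr2 and Il10ra (RPKM) beside summed RPKM of 11 dendritic cell markers, 12 macrophage markers and 14 core T cell genes in the same libraries, all on log axes with lines joining libraries of the same pool. Both marker sums of other cell types are higher and the core T cell sum is lower in every positive library.

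Ifngr1 (Entrez 15979), the ligand-binding chain, was the most abundant of the 9 in every library. It was at 336, 324, 356 and 136 RPKM in negative replicates 1 to 4 and at 509, 545, 309 and 232 RPKM in positive replicates 1 to 4. The groups overlapped, and replicate 4 was the lowest of both. The log2 fold change of 0.48 (SE 0.48, limma adjusted p = 0.866, and 0.37 with the block) did not pass, and replicate 3 went against the other 3 pairs. Its 95% interval, -0.56 to 1.51, leaves room for changes in either direction. Ifngr1 exceeded Ifngr2 by 219, 37.0, 136 and 18.8 times in negative replicates 1 to 4. In positive replicates 1 to 4 the excess was 25.4, 12.4, 11.5 and 9.93 times, smaller in all 4 pairs, although positive replicate 1 lay above negative replicate 4.

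Il10ra (Entrez 16154) codes for the chain that binds IL-10, a cytokine that restrains inflammatory responses. It was at 58.4, 36.8, 16.3 and 18.4 RPKM in negative replicates 1 to 4 and at 112, 152, 30.6 and 30.6 RPKM in positive replicates 1 to 4. Replicates 1 and 2 were higher than replicates 3 and 4 in both groups, and the groups overlapped although the positive library was the higher of every pair. The difference of 1.13 on the log2 scale did not pass without the block (SE 0.59, limma adjusted p = 0.524). With the block the SE was 0.25 and the adjusted p = 0.00353. Being higher in all 4 pairs held for 10.3% of all genes tested. The blocked call stayed with each pair left out in turn, with adjusted p from 0.000875 to 0.0207, fits chosen after seeing the data. Within replicates 1 and 2 the change was 1.47 (adjusted p = 0.0146) and within replicates 3 and 4 it was 0.79 (adjusted p = 0.476). The difference between these 2 changes, tested after seeing the data, did not pass (limma adjusted p = 0.969). Positive replicate 2, with the highest level, also had the highest dendritic cell and macrophage sums. Among the negative libraries Il10ra was highest in replicate 1, with the lowest macrophage sum (114 RPKM) and the highest dendritic cell sum (79.5 RPKM). Negative replicate 2 had the highest macrophage sum (421 RPKM), with Il10ra at 36.8 RPKM. The part of these cell types in the Il10ra values was not tested.

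**Figure D3:**
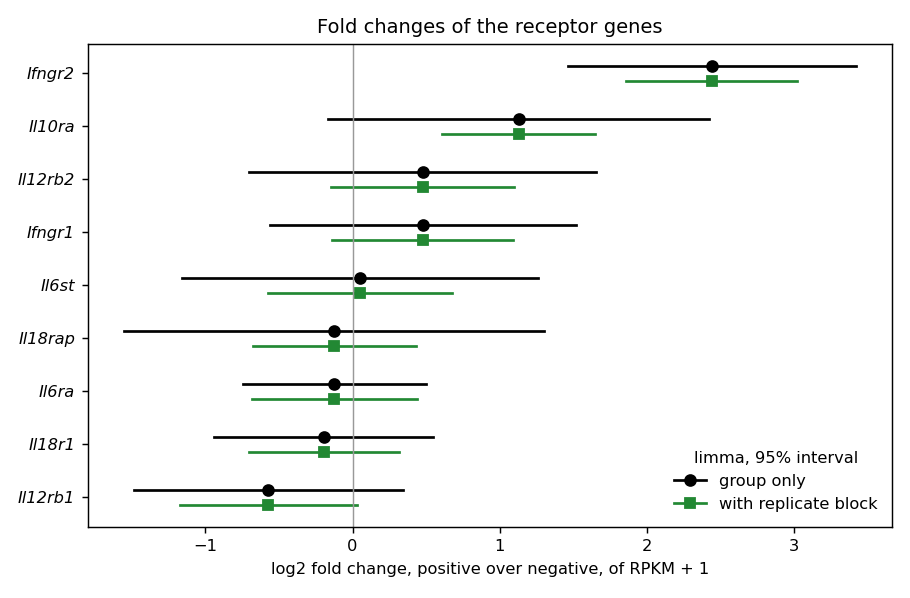
Log2 fold change (positive over negative, of RPKM + 1) of the 9 receptor genes with 95% intervals from limma, for the fit with the group only (black circles) and with the replicate block (green squares). The Ifngr2 interval is above 0 in both fits and the Il10ra interval in the blocked fit only.

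The IL-12 receptor chains differed in direction from each other, and neither passed. Il12rb1 (Entrez 16161), which binds IL-12 and IL-23, was at 15.9, 5.46, 4.59 and 6.61 RPKM in negative replicates 1 to 4 and at 6.997, 5.09, 1.93 and 5.64 RPKM in positive replicates 1 to 4. It was lower in all 4 pairs, as were 19.8% of all genes tested, and the groups overlapped. Its difference was -0.57 on the log2 scale (SE 0.42, limma adjusted p = 0.738, and 0.243 with the block), and it became 0.42 after scaling to core T cell genes. Il12rb2 (Entrez 16162), the STAT4-activating chain that activated T cells induce, was at 14.0, 4.84, 4.84 and 4.33 RPKM in negative replicates 1 to 4. In positive replicates 1 to 4 it was at 23.0, 15.2, 5.004 and 3.39 RPKM. High values were found in replicate 1 of both groups and in positive replicate 2, and the other libraries lay at 5.004 RPKM or below. The change of 0.48 (SE 0.54, limma adjusted p = 0.909, and 0.376 with the block) was 1.08 within replicates 1 and 2 and -0.12 within replicates 3 and 4, neither called. The difference between the sets did not pass (limma adjusted p = 0.936, unadjusted p = 0.0657).

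The ratio of Il12rb2 to Il12rb1 was 0.88, 0.89, 1.05 and 0.66 in negative replicates 1 to 4. In positive replicates 1 to 4 it was 3.28, 2.98, 2.60 and 0.60. Positive replicates 1 to 3 therefore lay above every negative library and positive replicate 4 below all of them. In positive replicate 3 the ratio rests on 96 reads of Il12rb2 and 36 of Il12rb1. In positive replicate 4 it rests on 53 and 86 reads and in negative replicate 4 on 39 and 58. The order of the replicate 4 ratios is therefore uncertain.

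**Figure D4:**
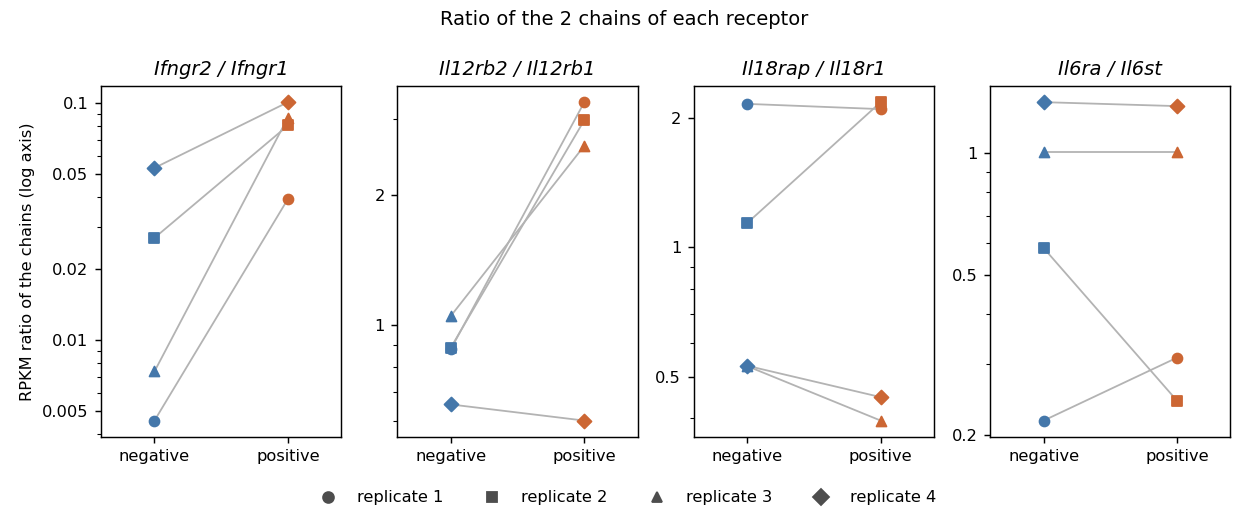
RPKM ratio of the 2 chains of each receptor on a log axis in each library, with lines joining libraries of the same pool. Ifngr2 over Ifngr1 is higher in the positive library of all 4 pairs, Il12rb2 over Il12rb1 in 3 of 4, Il18rap over Il18r1 in 1 and Il6ra over Il6st in 2.

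Il12rb2 and Il18rap are shown next because theirs were the 2 receptor promoters that held a searched motif of an immune transcription factor. Both strands were searched for 6 motifs, namely the STAT, IRF and GC box motifs above, GAGGAAGT of PU.1 (2.42% of promoters), an NF-kB motif (GGGA, any base, TTCCC; 0.278%) and TGANTCA of AP-1 (6.85%). Capitals mark the STAT match before Il12rb2 and the PU.1 match before Il18rap. No match overlapped a match to another motif.
Il12rb2, chr6:67376189-67376438, minus strand: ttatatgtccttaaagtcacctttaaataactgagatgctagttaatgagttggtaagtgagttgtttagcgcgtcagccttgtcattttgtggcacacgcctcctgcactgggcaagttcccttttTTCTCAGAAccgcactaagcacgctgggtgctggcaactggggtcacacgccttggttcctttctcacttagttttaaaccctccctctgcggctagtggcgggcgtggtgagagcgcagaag
Il18rap, chr1:40515112-40515361, plus strand: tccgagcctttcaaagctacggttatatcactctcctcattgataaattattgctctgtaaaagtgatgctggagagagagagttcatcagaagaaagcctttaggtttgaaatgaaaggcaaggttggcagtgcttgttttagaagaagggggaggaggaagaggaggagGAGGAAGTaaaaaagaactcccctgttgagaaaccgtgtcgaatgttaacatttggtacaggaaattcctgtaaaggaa
The STAT match lies at bases -123 to -115 from the Il12rb2 start and the PU.1 match at bases -79 to -72 from the Il18rap start. A match describes these letters and is not a measured binding site.

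The IL-18 receptor genes did not pass. Il18r1 (Entrez 16182), the chain that binds IL-18, was at 17.5, 8.18, 14.2 and 11.9 RPKM in negative replicates 1 to 4 and at 16.4, 6.86, 12.1 and 9.72 RPKM in positive replicates 1 to 4. The order of the replicates was the same in both groups, and within each pool the positive library was slightly lower, by 0.08 to 0.27 on the log2 scale. The difference of -0.20 did not pass (SE 0.34, 95% interval -0.94 to 0.55, limma adjusted p = 0.978, and 0.723 with the block), and 0.80 after scaling to core T cell genes. Il18rap (Entrez 16174), the accessory chain needed for signalling, was at 37.6, 9.30, 7.50 and 6.31 RPKM in negative and 34.5, 14.98, 4.79 and 4.35 RPKM in positive replicates 1 to 4. Replicate 1 was the highest in both groups and replicate 4 the lowest. Its log2 difference was -0.12 (SE 0.65, limma adjusted p = 1.0, and 0.861 with the block), with 3 of 4 pairs lower, and 0.87 after scaling to core T cell genes. Both genes lie on the plus strand of chromosome 1. Il18rap was above Il18r1 in replicates 1 and 2 of both groups, by 1.14 to 2.18 times, and below it in replicates 3 and 4, at 0.395 to 0.53 of its level.

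The IL-6 receptor genes did not pass either. Il6ra (Entrez 16194), the chain that binds IL-6, was at 5.87, 6.74, 6.66 and 8.50 RPKM in negative and 4.54, 7.34, 5.35 and 8.34 RPKM in positive replicates 1 to 4. It varied least of the 9 between libraries, and its log2 fold change was -0.12 (SE 0.28, 95% interval -0.74 to 0.50, limma adjusted p = 0.999, and 0.861 with the block). After scaling to core T cell genes it was 0.87. Il6st (Entrez 16195), which codes for gp130, the signalling chain shared by the IL-6 family, was at 27.0, 11.6, 6.62 and 6.34 RPKM in negative replicates 1 to 4. In positive replicates 1 to 4 it was at 14.6, 30.1, 5.31 and 6.36 RPKM. Replicates 1 and 2 went in opposite directions, by -0.84 and 1.31 on the log2 scale, and replicates 3 and 4 differed by at most 0.27. Over the 4 pairs it averaged 0.05 (SE 0.55, limma adjusted p = 1.0, and 0.96 with the block).

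In negative libraries the mean levels ran from Ifngr1 (288 ± 102 RPKM) and Il10ra (32.5 ± 19.6 RPKM) through Il18rap, Il18r1, Il6st, Il12rb1, Il12rb2 and Il6ra to Ifngr2 at 5.05 RPKM. In positive libraries Ifngr2 stood next after Ifngr1 (399 ± 152 RPKM) and Il10ra (81.3 ± 60.9 RPKM). It was followed by Il18rap, Il6st, Il12rb2, Il18r1, Il6ra and Il12rb1, the last at 4.91 ± 2.15 RPKM. The ranges of neighbours in this order overlapped in both groups, with the exception of Ifngr1 and Il10ra. Each gene's profile was compared with those of all other genes tested over the 8 libraries, as the root mean square difference of log2(RPKM + 1) values after each gene's mean was removed. The gene nearest to Ifngr2 was Tifa, an adaptor of innate signalling, at 0.29, against a median of 1.53 over all genes. Tifa averaged 16.2 RPKM in positive libraries and 1.98 RPKM in negative ones. The nearest were Rnh1 to Ifngr1 (0.13), Mvp to Il10ra (0.205), Il1rl2 to Il12rb1 (0.23) and 9930111J21Rik2 to Il12rb2 (0.17). For Il18r1, Il18rap, Il6ra and Il6st they were S1pr4 (0.13), Nlrc3 (0.21), Repin1 (0.13) and Trp53inp1 (0.15). Partner chains ranked, of 11945 genes in order of likeness, as follows: Ifngr2 was at 10742 for Ifngr1, and Ifngr1 at 2558 for Ifngr2. Il12rb2 was at 6324 for Il12rb1, and Il12rb1 at 3843 for Il12rb2. Il18rap was at 9724 for Il18r1, and Il18r1 at 3723 for Il18rap. Il6st was at 10308 for Il6ra, and Il6ra at 5635 for Il6st. By rank the nearest partner was Ifngr1 for Ifngr2, at 2558, but ranks depend on how far a gene lies from all others. By distance the interferon-gamma receptor chains were the most unlike, at 1.35. The distance was 0.82 for the IL-12, 0.935 for the IL-18 and 0.94 for the IL-6 receptor chains.

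Ligand genes of these receptors were called higher in 3 of 8 tested cases and lower in none, beside 3.03% and 0.268% of all genes. With the block 5 were higher and none lower, beside 7.22% and 3.85% of all genes. The list also holds relatives of the ligands and the IL-18 antagonist gene Il18bp, and its median log2 fold change was 1.98, against -0.11 over all genes. The listed genes Il10, Il12a, Il23a and Il27 were not found in the deposited table, and Lif was left out by the filter. Il18, which codes for the ligand of the IL-18 receptor, averaged 7.06 ± 3.20 RPKM without and 47.2 ± 15.7 RPKM with surface FcgRIIB (SD, n = 4 each), a log2 difference of 2.63 (SE 0.40, limma adjusted p = 0.00344). Ebi3, a subunit of IL-27, was at 27.1 ± 0.59 against 4.57 ± 2.80 RPKM (2.49, adjusted p = 0.00324). Osm, oncostatin M of the gp130 family, was at 64.2 against 8.66 RPKM (2.70, adjusted p = 0.0165, 0.0814 without negative replicate 3, and 0.075 after scaling to a common sum). Il12b and Il6, picked with their values in view, differed by 2.30 and 1.65 on the log2 scale and were not called without the block (limma adjusted p = 0.23 and 0.0937) but with it (adjusted p = 0.00178 and 0.000591). The blocked Il12b call ended without replicate 1 (adjusted p = 0.058). Both were also called within replicates 1 and 2. After scaling to core T cell genes they were called too, but 10.0% of all genes were called higher there. That scaling adds 0.99 to the log2 fold change of every gene, so it is not separate support. Il12b and Il6 were called as well without 1 positive library, replicate 4 for Il12b (adjusted p = 0.0311) and replicate 1 for Il6 (adjusted p = 0.037). Within replicates 3 and 4 neither was called, with Il12b at 1.07 (limma adjusted p = 0.634) and Il6 at 1.33 (adjusted p = 0.166). In replicate 4 Il12b was lower in the positive library, at 3.31 against 4.11 RPKM. Ifng, the interferon-gamma gene, likewise picked with its value in view, averaged 207 ± 104 RPKM without and 136 ± 70.5 RPKM with surface FcgRIIB (-0.61, limma adjusted p = 0.795, and 0.141 with the block). Dendritic cells and macrophages are known sources of IL-18, IL-12 and IL-6, the medians of their marker lists were 3.99 and 2.91, and their part was not tested.

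**Figure D5:**
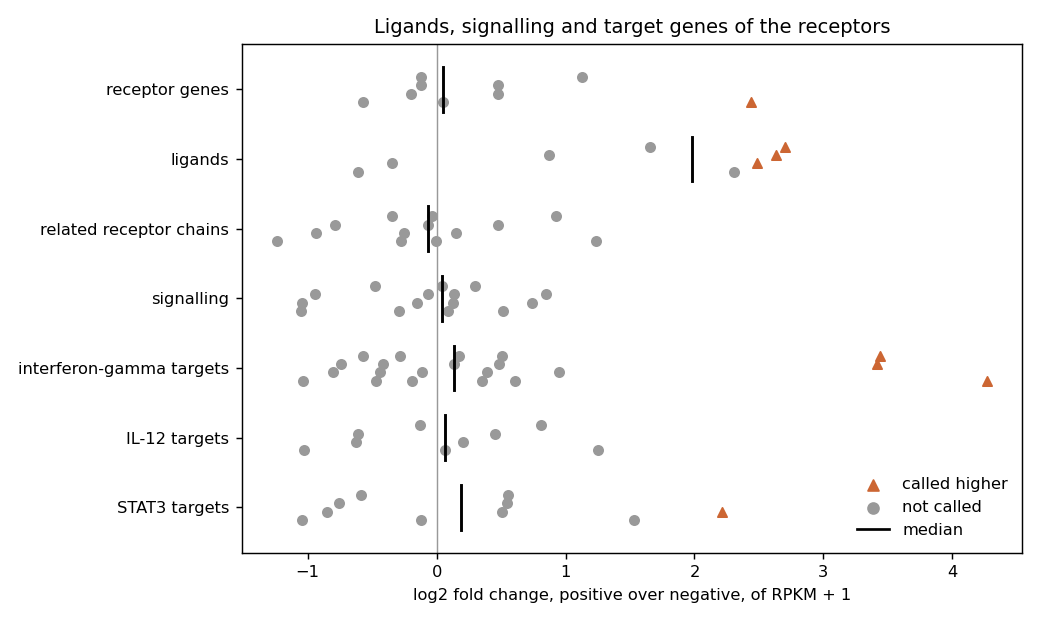
Log2 fold changes (positive over negative, of RPKM + 1) of the tested genes of each list, with genes called higher by limma as orange triangles, the others as grey circles and the list's median as a black bar. Ligands have a median of 1.98, and the other lists have medians between -0.07 and 0.19.

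Related receptor chains had a median of -0.07 over 13 tested genes, and limma called 0. By unadjusted p under 0.05 there was 1 higher (Il11ra1) and there were 2 lower (Il20rb and Il27ra), beside 7.48% and 4.67% of all genes. With the block Il11ra1 was called higher, and Il27ra and Sigirr lower, beside 7.22% and 3.85% of all genes. Il11ra1, which binds IL-11, had a change of 1.24 (limma adjusted p = 0.104, and 0.0104 with the block), and Il20rb one of -0.79 (adjusted p = 0.345, and 0.118 with the block). The blocked Il11ra1 call ended without replicate 1 or 3 (adjusted p = 0.116 and 0.0699). The lower genes of the blocked fit were Il27ra, the IL-27 receptor chain that pairs with gp130, at -1.24 (adjusted p = 0.000926) and Sigirr, a negative regulator of IL-1 family receptors, at -0.94 (adjusted p = 0.0118), both named after their values were seen. Sigirr lost this call without replicate 3 (adjusted p = 0.125), and Il27ra kept it without any 1 replicate. Of 15 signalling genes limma called 0, with 2 lower by unadjusted p under 0.05 (4.67% of all genes), and the median was 0.05. Socs3 and Socs1, feedback inhibitors of these pathways, had changes of -1.05 (limma adjusted p = 0.137) and -1.05 (adjusted p = 0.192) and were called lower with the block (adjusted p = 0.00338 and 0.00666). Stat4, picked with its value in view, was also lower with the block (-0.94, adjusted p = 0.0135). That made 3 of 15 lower in the blocked fit, beside 3.85% of all genes. Without 1 replicate the blocked calls ended for Socs1 (replicate 1, adjusted p = 0.0602) and Stat4 (replicate 3, adjusted p = 0.154), and Socs3 kept its call. For the core T cell genes that median was -0.98.

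Of 21 known interferon-gamma target genes 3 were called higher and none lower, beside 3.03% and 0.268% of all genes, with a median of 0.14. With the block 4 were higher and 2 lower, beside 7.22% and 3.85% of all genes. Cxcl9, a chemokine, averaged 2.10 ± 1.81 RPKM without and 53.3 ± 11.9 RPKM with surface FcgRIIB (a log2 difference of 4.27, limma adjusted p = 0.000217). Ciita, the class II transactivator, was at 30.2 ± 17.9 against 1.71 ± 1.13 RPKM (3.44, adjusted p = 0.00116). Irf8, a transcription factor needed by dendritic cells, was at 164 ± 64.3 against 14.8 ± 6.37 RPKM (3.42, adjusted p = 0.000869). These 3 are known from dendritic cells and macrophages as well, and kept their calls in all 8 fits without 1 library. Genes named after their values were seen, because the blocked fit called them, were Cxcl10 at 0.95 (adjusted p = 0.033), Gbp6 at -1.04 (adjusted p = 0.00997) and Igtp at -0.80 (adjusted p = 0.0359). None of these 3 was called in the blocked fit without replicate 3 (adjusted p = 0.354, 0.106 and 0.217), and Igtp also not without replicate 2 or 4 (adjusted p = 0.0763 and 0.0891). Among 9 genes known to respond to IL-12 limma called none, with 2 higher at an unadjusted p under 0.05 (7.48% of all genes). These were Hlx at 1.25 (limma adjusted p = 0.214) and Map3k8 at 0.81 (adjusted p = 0.342). With the block both were higher (adjusted p = 0.0128 and 0.0268) and Xcl1, named after its value was seen, was lower (-1.03, adjusted p = 0.0144), but none of the 9 was called in the blocked fit without replicate 3 (Hlx 0.0759, Map3k8 0.212 and Xcl1 0.0563, as adjusted p). These calls also ended without replicate 2 for Hlx (adjusted p = 0.171), replicate 1 or 4 for Map3k8 (adjusted p = 0.0704 and 0.059) and replicate 1 for Xcl1 (adjusted p = 0.203). Of 10 STAT3 target genes Ahr, the aryl hydrocarbon receptor, was called higher (2.21, limma adjusted p = 0.0207). Its call ended without any 1 of negative replicates 1, 2 and 3 (adjusted p = 0.0599, 0.0648 and 0.0776), after scaling to a common sum (adjusted p = 0.0571) and within replicates 3 and 4 (adjusted p = 0.095). With the block Bcl6 was also higher (1.53, adjusted p = 0.001) and Socs3 and Myc (-0.85, adjusted p = 0.0316) were lower, Bcl6 and Myc named after their values were seen. Myc lost this call without replicate 2 or 3 (adjusted p = 0.144 and 0.195), and Bcl6 kept it without any 1 replicate.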

How the data were processed

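Poly(A) RNA was measured in 8 libraries, for which cDNA came from SMART-seq v4 and library construction used NexteraXT, per the labels' protocols. The authors deposited RPKM per gene, per the file headers. The submitters' processing notes name TopHat2 (no version) and mm9, and the read counter and its use of strand are not given in the sources used here. On its values, every gene in the table reached 3.00 RPM in at least 4 libraries. Depths were recovered from the RPKM steps: 100% of the low values of short genes came out whole within 0.1 reads. Reads of amplified cDNA are not independent molecules.

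Limma 3.58.1 (R 4.3.3; lmFit, eBayes with trend) was run two-sided on log2(RPKM + 1), without covariates beside the group, over 11946 genes with at least 1 RPKM in 4 libraries (1258 left out), with Benjamini-Hochberg adjustment and a threshold of 0.05. The second fit added the replicate number as a block, since the series design states that both groups of a number come from 1 pool of spleens. After removal of group means, libraries of pairs 1 to 4 correlated at 0.70, 0.41, 0.56 and 0.68. Exact permutation tests used Python 3.11.15 and numpy 2.4.6. Steps were tested on simulated data for this comparison with 11946 genes: 3.2% of 2-fold, 53.2% of 4-fold and 80.8% of 8-fold changes were recovered. The simulated noise was independent between libraries, without shared pools. Only the fit without the block was run on it, so these shares do not describe the blocked fit.

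The genes, lists and alternatives were chosen with earlier results of these data known. Named were the 9 receptor genes, the nearest profile of each and, per list, up to 4 called members or the 2 of smallest p. Lists covered ligands, related receptor chains, signalling, targets of interferon-gamma, IL-12 and STAT3, and markers of core T, dendritic, macrophage, monocyte and granulocyte, B, plasma, natural killer, basophil, CD4 T and erythroid cells. Listed genes that did not match the table are not analysed here. List medians not given elsewhere were 0.30 for monocytes and granulocytes, -0.55 for B, 1.99 for plasma, 0.35 for natural killer, 1.92 for basophil, -0.14 for CD4 T and 0.82 for erythroid cells. Promoter sequences are from RefSeq on GRCm38.p6, another build than the authors used.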

Additional observations from a re-analysis of the deposited data

Results flagged for a closer look

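Ifngr1 in negative replicate 4, at 136 RPKM, lay far below the other 3 negative libraries (324 to 356 RPKM), a gap larger than Dixon's 95% critical value for 4 values. Positive replicate 4 was also the lowest of its group, at 232 RPKM. Il12rb2 in negative replicate 1, at 14.0 RPKM, lay far above the other 3 negative libraries (4.33 to 4.84 RPKM) by the same test, and positive replicate 1 was the highest of its group. The test was made on log2(RPKM + 1) in 18 groups of 4 libraries, and chance flags about 1 in 20 groups.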

How the results depend on the processing

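The alternatives comprised the replicate block, 2 other pseudocounts, 2 other filters on low values, 4 other scalings, each set of replicates alone and each library left out. Ifngr2 stayed called higher in every alternative except without negative replicate 3, where no receptor gene was called, and no alternative called a receptor gene lower (0 in each). With single libraries left out the count of receptor genes called higher was 0 to 1. It was 2, with Il10ra, under the replicate block, after scaling to core T cell genes, within replicates 1 and 2 alone, and in each of the 4 blocked fits without 1 pair, which were added after seeing the data. The block changed no other receptor call. Its calls among the other named genes are given beside their values, with those that ended in a blocked fit without 1 pair. Over all genes the block called 863 higher and 460 lower, against 362 and 32 without it (65.2% against 91.9% of calls higher).

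Uncalled genes changed sign under some alternatives, and the cause was not tested except where the scaling to core T cell genes fixes it. Scaling to core T cell genes gave Il12rb1 0.42, Il18r1 0.80, Il18rap 0.87, Il6ra 0.87, Ifng 0.38, Il20rb 0.20, Sigirr 0.055, Stat4 0.051, Myc 0.14 and Igtp 0.19. This scaling adds the same 0.99 to the log2 fold change of every gene. The sign of these 10, all below 0 in the main fit, therefore had to change, and it adds nothing about them. For the same reason the calls of Ifngr2, Il10ra, Il12b and Il6 after this scaling are not separate support. Il18rap was at 0.26 within replicates 1 and 2 and at 0.02 with the block and no replicate 3. Il12rb2 and Il6st were at -0.12 and -0.13 within replicates 3 and 4, and Il6st was at -0.37 with the block and no replicate 2. With single libraries left out Il18rap ranged from -0.66 to 0.42, Il6ra from -0.25 to 0.004 and Il6st from -0.40 to 0.46. Within replicates 3 and 4 alone 11 genes were called lower and 273 higher, at 3060000 to 7360000 reads per library. The effect of depth on these counts was not tested.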
